A study of Mus musculus with 6 samples.

Results

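The genes described here encode the machinery that makes ribosomes in the nucleolus, with the polyamine synthesis genes Srm and Odc1 beside them. The group holds 40 named genes, taken by the gene symbol in the deposited annotation. Of these, 39 had a probe set among the 28350 on the array, and 38 were tested among 15374 genes. Noc2l was not analysed here. The probe set of Tsr1 also names Srr, so its values are given without a test. Symbols with more than 1 probe set were read at the brightest of them, by its mean on the 6 arrays. The group was chosen with earlier results of these data known, so its counts are not independent of them.

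The cells were a pre-pro-B cell line without Ebf1 (Ebf1-/-), cultured over OP9 stroma with stem cell factor, flt3-ligand and IL-7, so that all 3 groups share the deletion and these conditions. Control cells received the empty MigR1 retrovirus, EBF1 cells MigY-EBF1 and Pax5 cells MigR-Pax5, and the sorted cells gave total RNA at 24 h after transduction. Each group has 2 Affymetrix arrays of this 1 line, and nothing says that they came from separate transductions, so the p-values may reflect technical spread alone. The EBF1 vector is named for another backbone than the Control and Pax5 vectors, and no empty MigY group is among the samples.

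Ribosome production starts with RNA polymerase I, which copies the rRNA genes into a long precursor in the nucleolus. Small nucleolar ribonucleoproteins (snoRNPs) modify this precursor, a large assembly called the small subunit processome folds and cleaves one part of it, and a separate set of factors builds the large subunit from the rest. The pathway takes up much of the transcription of growing cells, and genes for its proteins are well known targets of the transcription factor Myc. No rRNA, protein or ribosome was measured: every value below is an mRNA level on the log2 scale after RMA, which sets the arrays to a common scale, and a difference is one group mean minus another, with its SE from limma.

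The Pax5 arrays differed most from each other: array 1 minus array 2 had an SD across the 15374 tested genes of 0.263 there, against 0.152 in Control and 0.161 in EBF1 cells. The array medians over all probe sets lay between 4.06 and 4.17. Pax5 lay at 4.93 and 5.10 on the Control arrays, at 6.01 and 6.17 on the EBF1 arrays and at 11.42 and 11.33 on the Pax5 arrays, so that EBF1 cells were also above Control by 1.07 (SE 0.10, adjusted p = 0.0043). Ebf1 lay at 8.87 on both Control arrays, at 9.88 and 9.96 on the EBF1 arrays and at 8.92 and 8.87 on the Pax5 arrays. Where these probe sets lie relative to the deletion and the vectors is not stated in the sources used here.

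The direct comparison of EBF1 with Pax5 cells asked how the factors differ from each other in this line. Ribosome biogenesis mRNAs were higher in the EBF1 cells: 28 of the 38 tested genes passed an adjusted p of 0.05 with the higher mean in EBF1 cells, and 0 passed with the lower mean. Without adjustment, limma gave p under 0.05 for 34 genes higher in EBF1 cells and 0 lower, against 18.8% and 11.1% of all genes tested. Over all genes tested, 13.9% were called in this comparison, 8.72% higher in EBF1 cells and 5.22% lower. The median difference over the 38 genes was 0.45, or 1.37-fold, against 0.04 over all genes tested. The range ran from -0.16 for Wdr12, to 0.89 for Gnl3, and 37 of the 38 differences were above 0, against 57.1% of all genes. Both EBF1 arrays lay above both Pax5 arrays for 37 of the 38 genes, where 34.1% of all genes tested did so. In these bulk samples, fewer cells of a type and less RNA per cell cannot be told apart.

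The same genes were then set against the Control cells, whose 2 arrays both comparisons share. EBF1 cells had 4 genes called higher than Control (Srm, Polr1b, Gnl3 and Heatr1) and 0 called lower, against 5.59% called over all genes tested, 3.12% higher and 2.47% lower. The median difference from Control was 0.22 in EBF1 cells, against 0.01 over all genes tested, and 36 of the 38 differences were above 0, against 52.1% of all genes. At an unadjusted p under 0.05, 20 genes were higher in EBF1 cells and 0 lower, against 11.2% and 8.72% of all genes tested. Both EBF1 arrays lay above both Control arrays for 34 genes, where 30.1% of all genes did so. Pax5 cells had 2 genes called lower than Control (Gnl3 and Ddx21) and 0 called higher, against 4.21% called over all genes tested, 2.15% higher and 2.06% lower. Their median difference from Control was -0.24, against -0.04 over all genes tested, and 36 of the 38 differences were below 0, against 58.1% of all genes. At an unadjusted p under 0.05, 22 genes were lower in Pax5 cells and 0 higher, against 12.6% and 8.18% of all genes tested. Both Pax5 arrays lay below both Control arrays for 31 genes, where 31.3% of all genes did so.

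Most differences from Control were thus small, at most 0.60 in EBF1 cells and no lower than -0.45 in Pax5 cells, and the counts called against Control rest on few genes. The 4 calls in EBF1 cells were lost when either Control or either EBF1 array was left out. The 2 calls in Pax5 cells were lost without Pax5 array 2, without any 1 of the Control or EBF1 arrays, with no filter on low values and after array medians were subtracted. The 28 calls between EBF1 and Pax5 cells fell to 4 when either EBF1 array was left out and to 15 without either Control array. Gnl3 and Srm were called between EBF1 and Pax5 cells whichever array was left out. In the authors' deposited table, whose adjusted p is a step-up value, 3 of the 38 genes passed in this comparison (Gnl3, Ddx21 and Utp15). Over the 15374 genes tested, 205 passed with the higher mean in EBF1 cells and 174 with the lower mean. The authors' unadjusted p was below 0.05 for 33 of the 38, among them Wdr12, which was lower in EBF1 cells. The share of all genes below that limit in the authors' table is not given here.

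**Figure D1:**
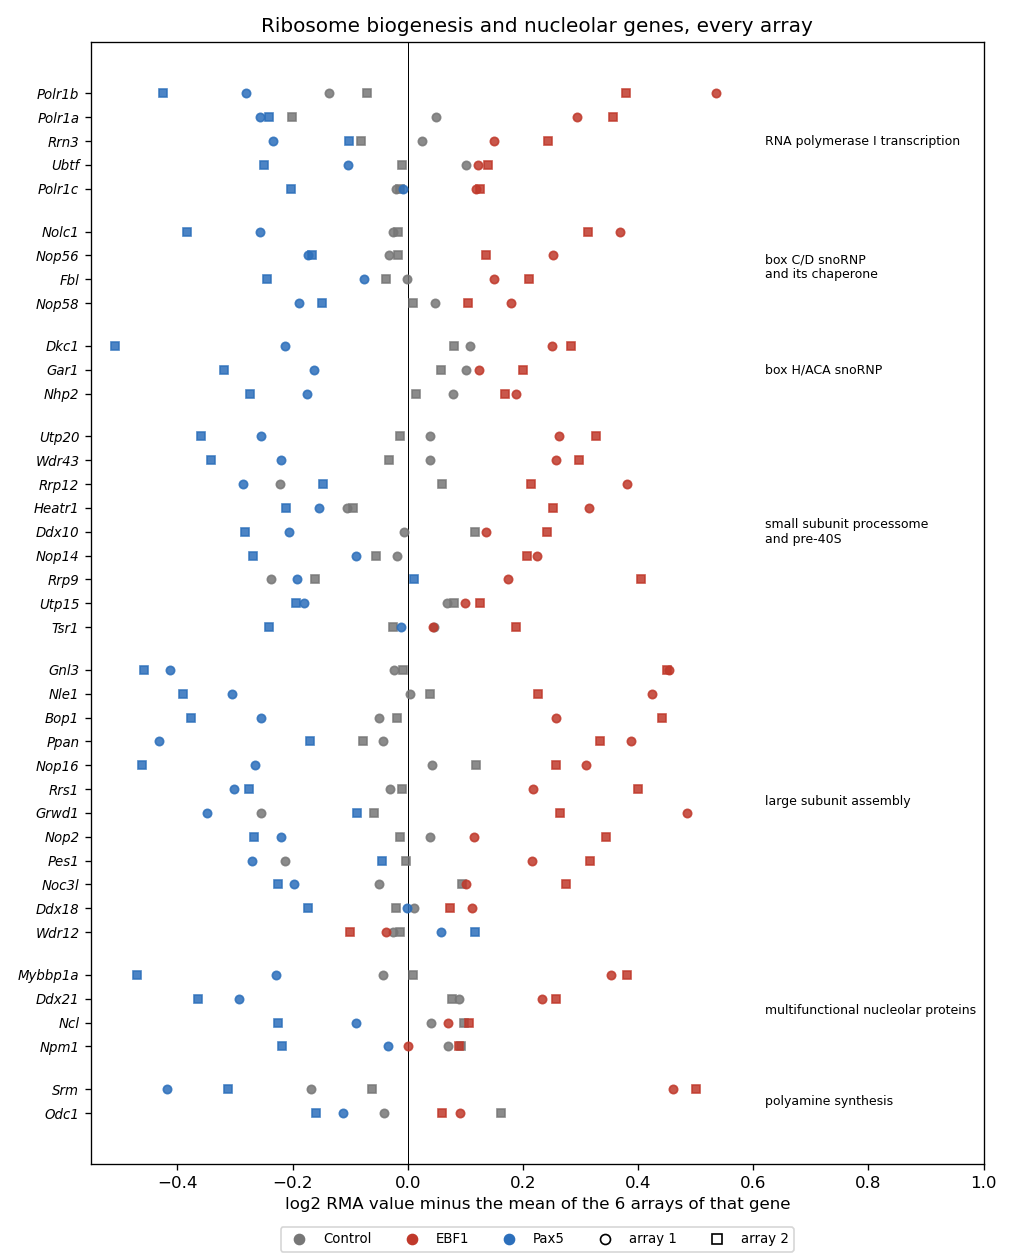
Each row is 1 gene, grouped by role, and each point is 1 array, drawn as its log2 RMA value minus the mean of the 6 arrays for that gene. Circles are array 1 and squares array 2 of each group. The EBF1 points lie to the right of the Pax5 points for every tested gene except Wdr12.

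Array by array, 37 of the 38 genes lay above their own mean of the 6 arrays on EBF1 array 1, and 37 did so on EBF1 array 2. On the Control arrays, 17 and 15 genes did so, and on the Pax5 arrays 1 and 2. The median deviation of the 38 genes from that mean was 0.22 and 0.25 on the EBF1 arrays, -0.01 on both Control arrays, and -0.22 and -0.25 on the Pax5 arrays. Pax5 array 2 was the lowest of the 6 arrays for 26 genes and Pax5 array 1 for 10. Between arrays of a group, these medians differed far less than between the EBF1 and Pax5 groups.

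Promoters are shown because these genes moved together and because Myc binds the sequence CACGTG, known as an E-box. A motif of EBF was also planned for the promoters, and its share is not given here. RefSeq promoters of build GRCm38.p6, from 250 bases before to 50 bases after the start site, matched 34 of the 40 genes by symbol. Npm1, Srm, Rrp12, Fbl, Rrs1 and Bop1 were not matched. CACGTG, which reads the same on both strands, stood in the promoters of 9 of the 34 genes (26.5%), against 8.09% of the 27025 genes in the promoter table. The matches that lie near the start sites are shown for the genes that hold them, with the E-box in capitals and up to 12 bases on each side, on the strand of the gene.
Nop2, chr6:125131811-125131840, + strand: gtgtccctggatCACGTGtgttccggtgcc
Wdr43, chr17:71616220-71616249, + strand: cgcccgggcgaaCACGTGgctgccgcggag
Pes1, chr11:3963965-3963994, + strand: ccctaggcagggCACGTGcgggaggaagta
Mybbp1a, chr11:72441355-72441376, + strand: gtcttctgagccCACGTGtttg
Utp20, chr10:88826765-88826789, - strand: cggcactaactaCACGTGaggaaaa
Nle1, chr11:82908355-82908384, - strand: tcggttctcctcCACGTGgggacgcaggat
Grwd1, chr7:45830740-45830767, - strand: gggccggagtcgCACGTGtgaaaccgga
Tsr1, chr11:74898092-74898121, + strand: tcacttggtgcaCACGTGgactgcagaatg

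Among the 34 matched genes, only Rrn3 had a pair of E-boxes in this window. The 250 bases before its start site are shown with both in capitals, beside the same stretch of Gnl3, which had the largest difference between EBF1 and Pax5 cells and no match.
Rrn3, chr16:13780449-13780698, + strand: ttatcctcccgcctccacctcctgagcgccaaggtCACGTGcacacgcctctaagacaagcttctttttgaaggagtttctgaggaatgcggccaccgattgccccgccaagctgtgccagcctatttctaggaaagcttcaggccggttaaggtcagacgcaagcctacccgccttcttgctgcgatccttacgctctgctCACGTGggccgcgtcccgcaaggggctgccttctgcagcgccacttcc
Gnl3, chr14:31019132-31019381, - strand: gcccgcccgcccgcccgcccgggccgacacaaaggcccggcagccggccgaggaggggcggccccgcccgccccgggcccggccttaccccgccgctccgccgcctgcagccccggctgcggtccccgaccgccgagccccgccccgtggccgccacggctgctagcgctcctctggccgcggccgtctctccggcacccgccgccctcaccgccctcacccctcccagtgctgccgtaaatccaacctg

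Of the genes with CACGTG, 8 were tested, and 7 of these were called higher in EBF1 than in Pax5 cells, against 8.72% of all genes tested. Their median difference was 0.58, with a range from 0.36 to 0.72. Of the 24 tested genes with a promoter in the table and no CACGTG, 17 were called, with a median of 0.40 and a range from -0.16 to 0.89. Against Control, 0 of the 8 genes with CACGTG were called in either group. Of the 24 without it, 3 were called in EBF1 cells and 2 in Pax5 cells. Over all genes tested, 5.59% and 4.21% were called. The medians against Control were 0.29 with and 0.16 without CACGTG in EBF1 cells, and -0.27 and -0.23 in Pax5 cells. Differences between genes with and without CACGTG were not tested, and a match describes letters in a window, not a bound site.

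RNA polymerase I genes come first in the pathway, and 3 of the 5 tested were called higher in EBF1 than in Pax5 cells. Their median difference was 0.36. The share to set beside this count and those of the roles below is 8.72% of all genes tested. Against Control, 3.12% of all genes were called higher in EBF1 cells and 2.06% lower in Pax5 cells. Polr1b (probe set 10475965, chromosome 2) encodes one of the large catalytic subunits of the enzyme. Its log2 values were 6.65 and 6.72 on the Control arrays, 7.32 and 7.16 on the EBF1 arrays, and 6.51 and 6.36 on the Pax5 arrays. The EBF1 arrays were the highest and the Pax5 arrays the lowest, with no overlap between groups. Polr1b was 1.47-fold higher in EBF1 than in Control cells (difference 0.56, SE 0.09, adjusted p = 0.028) and 1.75-fold higher than in Pax5 cells (0.81, SE 0.09, adjusted p = 0.0049). Its difference between Pax5 and Control cells was -0.25 (adjusted p = 0.21).

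Polr1a, the gene of the largest subunit, had values of 7.34 and 7.09 in Control, 7.59 and 7.65 in EBF1, and 7.03 and 7.05 in Pax5 cells. The Control arrays lay farther apart than those of the other groups, and the EBF1 arrays were again the highest. Its difference between EBF1 and Pax5 cells was 0.57 (SE 0.10, adjusted p = 0.017), and that between EBF1 and Control cells, 0.40, was not called (adjusted p = 0.085). Rrn3, whose promoter holds the E-box pair shown above, encodes the factor that brings the polymerase to the rRNA promoter. It was higher in EBF1 than in Pax5 cells by 0.36 (SE 0.09, adjusted p = 0.046) and was called against Control in neither group (0.23 and -0.14). Ubtf, which encodes a factor that binds the rRNA genes, differed by 0.31 between EBF1 and Pax5 cells (adjusted p = 0.07). Polr1c, a subunit shared with RNA polymerase III, differed by 0.23 (adjusted p = 0.15).

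The box C/D snoRNPs place methyl groups on rRNA. In this set, 3 of 4 genes were called higher in EBF1 than in Pax5 cells, and 0 were called against Control in either group. Among 4 genes, 0 called lies near the shares of all genes called against Control. Nolc1, a nucleolar chaperone of snoRNPs, lay at 8.36 and 8.37 in Control, 8.76 and 8.70 in EBF1, and 8.13 and 8.0 in Pax5 cells. Its groups did not overlap, and its difference between EBF1 and Pax5 cells was 0.66 (SE 0.08, adjusted p = 0.0056). The core scaffold genes Nop56 and Nop58 were called with smaller differences. That of Nop56 was 0.36 (adjusted p = 0.031), and that of Nop58 was 0.31 (adjusted p = 0.045). Fbl encodes the methyltransferase fibrillarin. Its probe set in use is placed on chromosome 17, whereas the gene lies on chromosome 7, and it gave a difference of 0.34 that missed the threshold (adjusted p = 0.053). A dimmer Fbl probe set on chromosome 7 gave 0.46.

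The box H/ACA snoRNPs convert uridines of rRNA to pseudouridine, and all 3 of the genes tested were called higher in EBF1 than in Pax5 cells. Dkc1, on the X chromosome, encodes the pseudouridine synthase dyskerin. Its values were 7.68 and 7.66 in Control, 7.83 and 7.86 in EBF1, and 7.36 and 7.07 in Pax5 cells. The Control and EBF1 arrays lay close together, and the Pax5 arrays were lower and farther apart. Dkc1 was 1.54-fold higher in EBF1 than in Pax5 cells (0.63, SE 0.11, adjusted p = 0.017). Its difference between Pax5 and Control cells was -0.45, the largest in size of the 38 genes, and was not called (SE 0.11, adjusted p = 0.087). Gar1 and Nhp2 encode core proteins of the same particle, and each was higher by 0.40 in EBF1 than in Pax5 cells (adjusted p = 0.032 for Gar1 and 0.023 for Nhp2). Against Control the medians of the 3 genes were 0.13 in EBF1 and -0.32 in Pax5 cells, with 0 genes called. For 3 genes, this also lies near the shares of all genes called.

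The genes of the small subunit processome and of later small subunit maturation had 7 of 8 tested members called higher in EBF1 than in Pax5 cells, with a median of 0.45. Utp20 (probe set 10371676, chromosome 10), a large scaffold protein of the processome, lay at 6.36 and 6.31 in Control, 6.59 and 6.65 in EBF1, and 6.07 and 5.96 in Pax5 cells. Its 3 groups did not overlap, and it was 1.52-fold higher in EBF1 than in Pax5 cells (0.60, SE 0.08, adjusted p = 0.0069). Heatr1 (probe set 10403511, chromosome 13) belongs to the early processome subcomplex that also acts in rRNA transcription. It had values of 7.47 and 7.48 in Control, 7.89 and 7.83 in EBF1, and 7.42 and 7.37 in Pax5 cells. The Control and Pax5 arrays lay close to each other, and the EBF1 arrays stood above both. Heatr1 was 1.30-fold higher in EBF1 than in Control cells (0.38, SE 0.07, adjusted p = 0.041), and its difference between Pax5 and Control cells was -0.08 (adjusted p = 0.57).

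Wdr43 and Utp15 belong to the same early subcomplex as Heatr1. Wdr43 differed by 0.56 between EBF1 and Pax5 cells (SE 0.08, adjusted p = 0.0097). Utp15 lay at 7.30 and 7.31 in Control, 7.33 and 7.36 in EBF1, and 7.05 and 7.04 in Pax5 cells. Its EBF1 arrays lay just above those of Control, and its Pax5 arrays were the lowest. It was called between EBF1 and Pax5 cells (0.30, SE 0.07, adjusted p = 0.043) and not between Pax5 and Control cells (-0.26, adjusted p = 0.12). The other called members were Rrp12 (0.51), an export and maturation factor of pre-ribosomes, the helicase gene Ddx10 (0.43) and Nop14 (0.40). Rrp9, a protein of the U3 snoRNP, was the exception. It lay at 6.08 and 6.16 in Control, 6.5 and 6.73 in EBF1, and 6.13 and 6.33 in Pax5 cells. Its Pax5 arrays overlapped those of Control, and its difference between EBF1 and Pax5 cells was 0.38 (adjusted p = 0.081). Tsr1, a late factor of small subunit assembly, lay at 7.46 and 7.39 in Control, 7.46 and 7.60 in EBF1, and 7.41 and 7.18 in Pax5 cells. Its signal cannot be told apart from that of Srr.

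**Figure D2:**
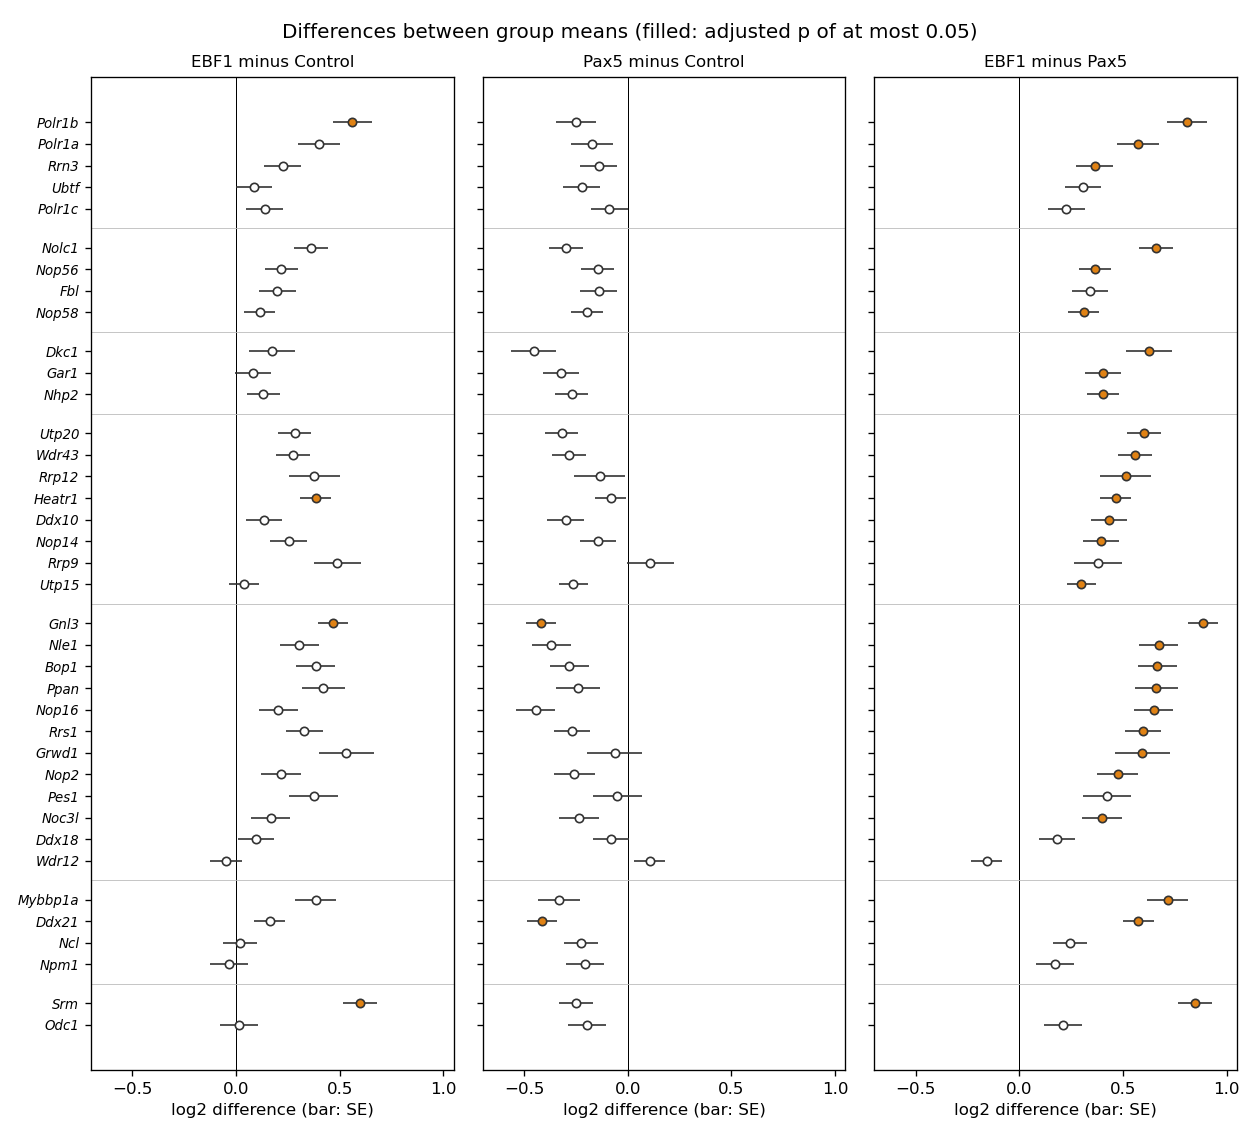
Each panel gives 1 comparison, with the log2 difference between group means on the x axis, the SE from limma as a bar, and the 38 tested genes in rows grouped by role. Filled points passed an adjusted p of 0.05: there are 4 for EBF1 minus Control, 2 for Pax5 minus Control and 28 for EBF1 minus Pax5.

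The large subunit genes had a median difference of 0.60, and 9 of 12 tested were called higher in EBF1 than in Pax5 cells. Gnl3 (probe set 10418480, chromosome 14) encodes nucleostemin, a nucleolar GTPase of large subunit maturation that is abundant in stem and progenitor cells. Its values were 9.48 and 9.49 in Control, 9.96 and 9.95 in EBF1, and 9.09 and 9.05 in Pax5 cells. Arrays of a group lay close together, and the 3 groups stood well apart. Gnl3 was the only gene of the group called in all 3 comparisons. It was 1.38-fold higher in EBF1 than in Control cells (0.47, SE 0.07, adjusted p = 0.02), 1.34-fold lower in Pax5 than in Control cells (-0.42, SE 0.07, adjusted p = 0.033) and 1.85-fold higher in EBF1 than in Pax5 cells (0.89, SE 0.07, adjusted p = 0.0014).

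Pes1, Bop1 and Wdr12 encode the PeBoW complex, which acts in large subunit rRNA processing, and their probe sets did not move alike. Bop1 lay at 6.78 and 6.81 in Control, 7.09 and 7.27 in EBF1, and 6.58 and 6.46 in Pax5 cells. Its groups did not overlap, and its difference between EBF1 and Pax5 cells was 0.67 (SE 0.09, adjusted p = 0.0086). Pes1 lay at 7.16 and 7.37 in Control, 7.59 and 7.69 in EBF1, and 7.11 and 7.33 in Pax5 cells. The Pax5 and Control arrays overlapped, and the difference between EBF1 and Pax5 cells, 0.42, was not called (SE 0.12, adjusted p = 0.063). A second, dim Pes1 probe set gave -0.25. Wdr12 lay at 8.61 and 8.63 in Control, 8.60 and 8.54 in EBF1, and 8.70 and 8.76 in Pax5 cells. Its Pax5 arrays were the highest, and its difference between EBF1 and Pax5 cells was -0.16 (SE 0.07, adjusted p = 0.22). This probe set is placed on chromosome 7, whereas Wdr12 lies on chromosome 1, and the Wdr12 probe set on chromosome 1 gave -0.28, which was not called either.

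Among the other large subunit genes, Nle1, Ppan, Nop16, Rrs1, Grwd1, Nop2 and Noc3l were called. Nle1, a partner of the AAA ATPase that remodels pre-ribosomes, lay at 6.0 and 6.04 in Control, 6.42 and 6.22 in EBF1, and 5.69 and 5.61 in Pax5 cells. Its EBF1 arrays were the highest and its Pax5 arrays the lowest, a difference of 0.67 (SE 0.09, adjusted p = 0.0082). Ppan, a factor of large subunit rRNA maturation, differed by 0.66 (SE 0.10, adjusted p = 0.012). Nop16 differed by 0.65 (SE 0.09, adjusted p = 0.0091), and its difference between Pax5 and Control cells was -0.44 (adjusted p = 0.061). Rrs1, which joins the ribonucleoprotein of the small rRNA of the large subunit, differed by 0.60. Grwd1, known in yeast as a chaperone of a ribosomal protein, differed by 0.59, the rRNA methyltransferase gene Nop2 by 0.47 and Noc3l by 0.40. Ddx18, a helicase gene, differed by 0.18 (adjusted p = 0.23), at a probe set placed on chromosome 6 whereas the gene lies on chromosome 1.

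The multifunctional nucleolar proteins gave a mixed picture, with 2 of 4 genes called higher in EBF1 than in Pax5 cells. Ddx21 (probe set 10369630, chromosome 10), a helicase of both rRNA transcription and processing, lay at 8.30 and 8.29 in Control, 8.45 and 8.47 in EBF1, and 7.92 and 7.85 in Pax5 cells. All 3 groups were separate, and the Pax5 arrays stood farthest from Control. Ddx21 was 1.33-fold lower in Pax5 than in Control cells (-0.41, SE 0.07, adjusted p = 0.037) and 1.49-fold higher in EBF1 than in Pax5 cells (0.57, SE 0.07, adjusted p = 0.0062). Its difference between EBF1 and Control cells was 0.16 (adjusted p = 0.3).

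Mybbp1a, a regulator of nucleolar transcription, lay at 7.89 and 7.95 in Control, 8.29 and 8.32 in EBF1, and 7.71 and 7.47 in Pax5 cells. Its groups did not overlap, and its difference between EBF1 and Pax5 cells was 0.72 (SE 0.10, adjusted p = 0.0081). Ncl and Npm1, which encode the abundant nucleolar proteins nucleolin and nucleophosmin, were not called in any comparison. Ncl lay at 10.30 and 10.35 in Control, 10.33 and 10.36 in EBF1, and 10.17 and 10.03 in Pax5 cells. Npm1 lay at 11.06 and 11.08 in Control, 10.99 and 11.08 in EBF1, and 10.95 and 10.77 in Pax5 cells. For both, the EBF1 and Control arrays overlapped and the Pax5 arrays were lower, and the difference between EBF1 and Pax5 cells was 0.25 for Ncl (adjusted p = 0.11) and 0.17 for Npm1 (adjusted p = 0.27). The 4 Npm1 probe sets, of which 1 is placed on the chromosome of the gene, gave between 0.11 and 0.17 in this comparison.

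The polyamine genes differed from each other. Srm (probe set 10510391, chromosome 4) encodes spermidine synthase, and its values were 9.03 and 9.13 in Control, 9.66 and 9.70 in EBF1, and 8.78 and 8.88 in Pax5 cells. Its EBF1 arrays stood well above the others, with no overlap between groups. Srm was 1.51-fold higher in EBF1 than in Control cells (0.60, SE 0.08, adjusted p = 0.015), the largest such difference of the 38 genes, and 1.80-fold higher than in Pax5 cells (0.85, SE 0.08, adjusted p = 0.0025). Its difference between Pax5 and Control cells was -0.25 (adjusted p = 0.17). Odc1 encodes ornithine decarboxylase, which catalyses the step before. It lay at 8.90 and 9.10 in Control, 9.03 and 9.00 in EBF1, and 8.83 and 8.78 in Pax5 cells. The EBF1 arrays lay between those of Control, and the difference between EBF1 and Pax5 cells was 0.21 (adjusted p = 0.19). The Odc1 probe set is placed on chromosome 8 and the gene on chromosome 12, and a probe set on chromosome 12 gave 0.15.

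In 5 of the 39 genes (Npm1, Fbl, Ddx18, Odc1 and Wdr12) the brightest probe set is thus placed on another chromosome than the gene, where a near-identical copy could share its signal. These 5 are all among the 10 that were not called between EBF1 and Pax5 cells. Read at the own chromosome of each gene, 29 of the 38 were called, Fbl among them, and the median was 0.46. At that reading the difference was 0.10 for Ddx18, 0.15 for Odc1, 0.17 for Npm1 and -0.28 for Wdr12, and these genes were still not called. This reading was chosen after the values were seen.

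**Figure D3:**
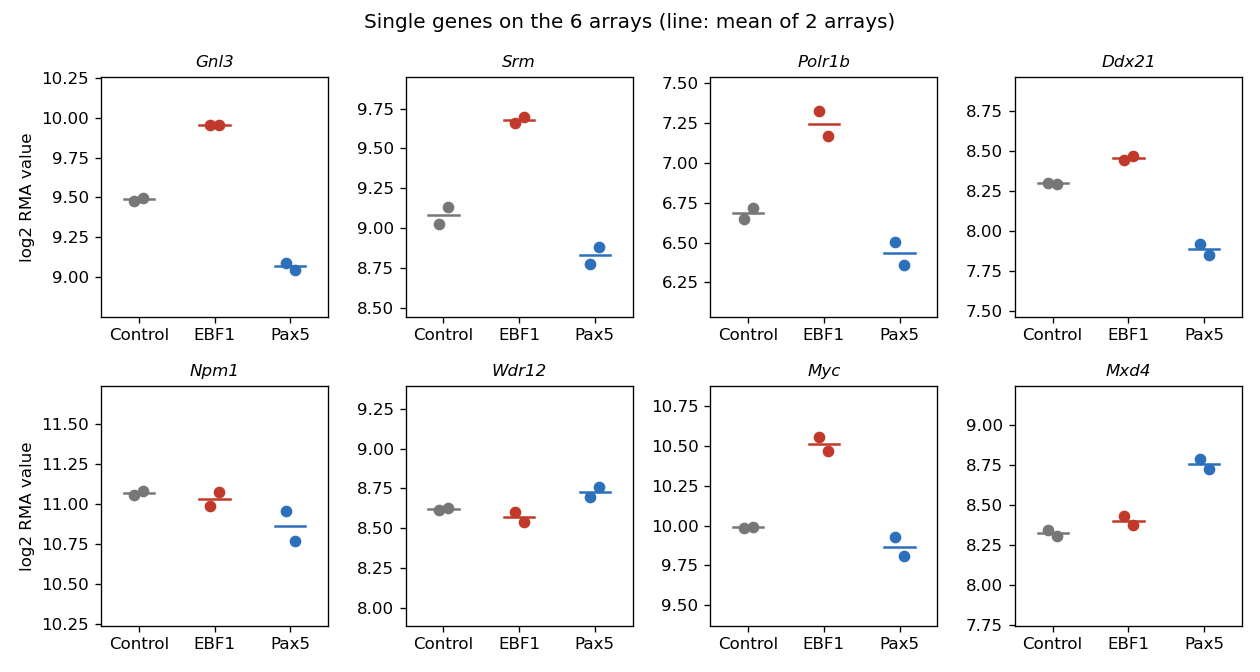
Log2 RMA values of 8 single genes on the 6 arrays, with points for arrays and a line for the mean of 2 arrays, on y axes that each span the same range of log2 units. Gnl3, Srm, Polr1b and Myc are highest on the EBF1 arrays, Ddx21 is lowest on the Pax5 arrays, Npm1 overlaps between Control and EBF1, and Wdr12 and Mxd4 are highest on the Pax5 arrays.

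Further genes of the pathway, which are not in the group above, were read from lists. These lists too were chosen with earlier results of these data known, so they are no independent check of the group. The shares of all genes tested to set beside their counts are 8.72% called higher in EBF1 than in Pax5 cells and 5.22% lower. Of 38 other small subunit assembly genes, 23 were called higher in EBF1 than in Pax5 cells and 0 lower, with a median of 0.45. They included Mphosph10 (0.94, SE 0.12, adjusted p = 0.0062) and Pwp2 (0.72, SE 0.12, adjusted p = 0.015), both processome proteins. Of 45 other large subunit assembly genes, 15 were called higher and 0 lower, with a median of 0.27, among them Rrp15 (0.87) and Ftsj3 (0.85), an rRNA methyltransferase gene. Of 9 other RNA polymerase I genes, 2 were called higher and 0 lower (Cd3eap at 0.69 and Polr1e at 0.60, both polymerase subunits). The RNA exosome, which trims rRNA precursors, had 5 of 12 called higher and 0 lower, led by the cofactor gene Mphosph6 (0.82, SE 0.08, adjusted p = 0.0023) and Exosc1 (0.45). RNA polymerase III genes had 3 of 19 called higher and 0 lower, led by Polr3e (0.57) and Polr3d (0.49), with a median of 0.02.

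Against Control, fewer genes of these lists passed the adjusted threshold. Over all genes tested, 3.12% were called higher and 2.47% lower in EBF1 cells, and 2.15% and 2.06% in Pax5 cells. In EBF1 cells the small subunit list had 2 called higher, Pno1 (0.53, adjusted p = 0.03) and Bysl (0.44, adjusted p = 0.05), both late assembly factors, and the exosome list had 2, Mphosph6 (0.51) and Exosc5 (0.46). In Pax5 cells the small subunit list had 4 called lower, among them Mphosph10 (-0.63, adjusted p = 0.046) and Utp18 (-0.49, adjusted p = 0.044), and the large subunit list had 1, Mrto4 (-0.38, adjusted p = 0.047). The other RNA polymerase I and the RNA polymerase III lists had 0 called against Control in either group. At an unadjusted p under 0.05, the small subunit list had 19 of 38 higher and 0 lower in EBF1 cells, and 1 higher and 15 lower in Pax5 cells. The large subunit list had 12 of 45 higher and 0 lower in EBF1 cells, and 0 higher and 14 lower in Pax5 cells, and the exosome list had 3 of 12 higher in EBF1 cells, and 1 higher and 4 lower in Pax5 cells. The RNA polymerase I list had 1 lower in EBF1 cells and 4 lower in Pax5 cells. The RNA polymerase III list had 1 of 19 higher in EBF1 cells, and 1 higher and 5 lower in Pax5 cells. Of all genes tested, 11.2% were higher and 8.72% lower at this unadjusted limit in EBF1 cells, and 8.18% and 12.6% in Pax5 cells.

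The ribosomal proteins themselves, the structural parts of the finished ribosome, had a median difference of 0.00 between EBF1 and Pax5 cells. Of 77 tested, 2 were called higher in EBF1 cells (Rpl23a at 0.77 and Rps12 at 0.69) and 1 lower (Rpl3l at -0.39), which is 2.60% called higher against 8.72% of all genes. Ribosomal protein genes have many near-identical copies, so single values among them are uncertain. Against Control, 0 of the 77 were called by limma in either group, with 1 higher and 2 lower in EBF1 cells and 2 lower in Pax5 cells at an unadjusted p under 0.05. The shares of all genes tested at that limit were 11.2% higher and 8.72% lower in EBF1 cells, and 12.6% lower in Pax5 cells. Other polyamine genes had 1 of 7 called higher in EBF1 than in Pax5 cells, Oaz2, an antizyme that holds polyamine synthesis back (0.45, adjusted p = 0.017).

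**Figure D4:**
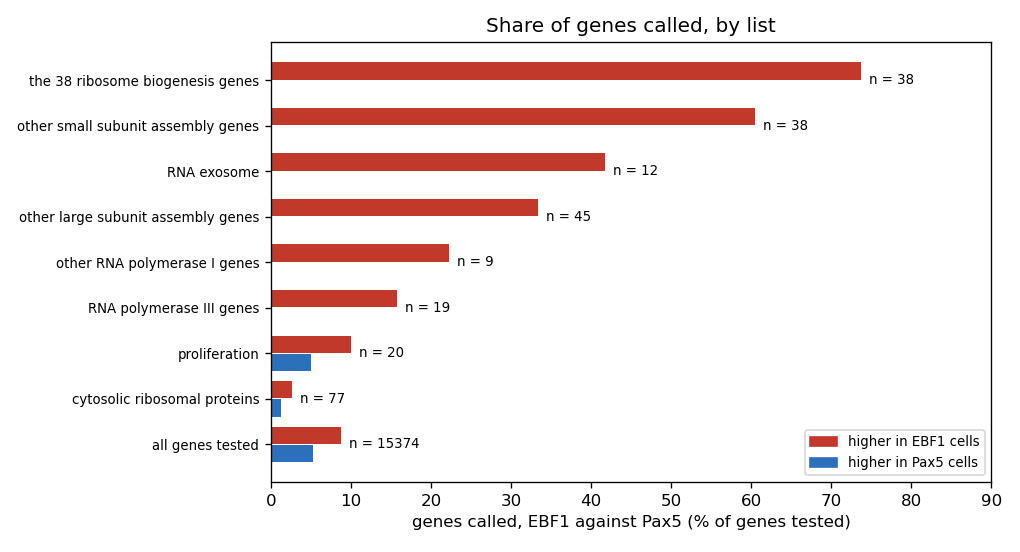
Bars give the share of tested genes in each list that were called between EBF1 and Pax5 cells, as a percent of the number printed beside each bar, in red for genes higher in EBF1 cells and in blue for genes higher in Pax5 cells. The 38 ribosome biogenesis genes stand at 73.7% higher in EBF1 cells, all genes tested at 8.72% and ribosomal proteins at 2.60%.

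Myc, whose binding sequence was read in the promoters above, was higher in EBF1 cells. It lay at 9.99 on both Control arrays, 10.56 and 10.47 on the EBF1 arrays, and 9.93 and 9.81 on the Pax5 arrays. The EBF1 arrays stood apart, and the Pax5 arrays lay slightly below Control without overlap. Myc was higher by 0.52 in EBF1 than in Control cells (SE 0.08, adjusted p = 0.021) and by 0.64 than in Pax5 cells (SE 0.08, adjusted p = 0.0061), and its difference between Pax5 and Control cells was -0.12 (adjusted p = 0.45). The call against Control was lost when either Control or either EBF1 array was left out, and the call against Pax5 cells was lost without EBF1 array 1. Both Myc calls were also lost with the authors' step-up p, which was 0.13 against Control and 0.068 against Pax5 cells.

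Max, the dimer partner of Myc, was called in no comparison (-0.01 for EBF1 minus Control, -0.13 for Pax5 minus Control and 0.12 for EBF1 minus Pax5). Mxd4, a Max partner that opposes Myc at shared sites, lay at 8.34 and 8.31 in Control, 8.43 and 8.37 in EBF1, and 8.79 and 8.72 in Pax5 cells. Its Pax5 arrays were the highest, with a difference of 0.43 from Control (SE 0.08, adjusted p = 0.035), and it was lower in EBF1 than in Pax5 cells (-0.35, adjusted p = 0.03). Both Mxd4 calls were lost with no filter on low values, with only the 4 arrays compared and with the authors' step-up p. Both were also lost without any 1 of the Control or EBF1 arrays. The Mxd4 call against Control was lost without Pax5 array 2 and with the replicate block as well. Whether Myc or Mxd4 had a part in the levels of the ribosome biogenesis genes was not tested.

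Proliferation genes were read beside the group. Of 20 tested, 2 were called higher in EBF1 than in Pax5 cells (Mcm5 at 0.51 and Mcm3 at 0.40, parts of the replicative helicase) and 1 lower (the spindle checkpoint kinase gene Bub1 at -0.35), with a median of 0.07. These shares, 10% higher and 5% lower, lay near the 8.72% and 5.22% of all genes tested. Against Control, 0 were called in either group, with 1 higher and 1 lower in EBF1 cells and 1 higher and 3 lower in Pax5 cells at an unadjusted p under 0.05. Of all genes tested, 11.2% were higher and 8.72% lower at that limit in EBF1 cells, and 8.18% and 12.6% in Pax5 cells.

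Markers of other cells also differed between groups. The summed linear level of 13 stromal markers was 629 to 647 on the Control arrays, 840 to 844 on the EBF1 arrays and 708 to 836 on the Pax5 arrays. Lum and Postn lay below the filter and are included in that sum. The sum over 9 myeloid markers was 337 to 341 in Control, 252 to 268 in EBF1 and 257 to 261 in Pax5 cells. It includes Lyz2, which lay below the filter. The sum over 6 T-lineage markers was 154 to 166 in Control, 151 to 162 in EBF1 and 177 to 192 in Pax5 cells. It includes Cd3g, which lay below the filter, and the Control and EBF1 sums overlapped. Of the 5 T-lineage markers tested, 0 were called in any comparison. All 13 markers of lymphoid progenitors and early B cells, the labelled cell type, passed the filter, with sums of 4385 to 4423 in Control, 5842 to 6026 in EBF1 and 3614 to 3645 in Pax5 cells. Single markers of this list moved both ways: 3 of the 13 were called higher in EBF1 than in Control cells and 5 lower, with a median difference of -0.28. Over all genes tested, 3.12% were called higher and 2.47% lower. In Pax5 cells, 3 were called higher than Control and 4 lower, against 2.15% and 2.06% of all genes, with a median difference of -0.04. The part of these levels, and of the wider spread of the Pax5 arrays, in the results above was not tested.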

How the data were processed

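Total RNA was amplified with a NuGEN kit and hybridised to Affymetrix arrays, per the labels' protocols. The deposited values are log2 values that the authors made with RMA and Partek 6.5, per the submitters' processing notes, with RMA options and annotation build not stated in the sources used here. The same log2 values (largest difference 0) stand in a further deposited table that adds, per the file headers, the authors' p-value and step-up p-value and a ratio for each pair of groups. Of 28350 probe sets, 23166 carried 1 symbol, 2088 several and 3096 none, and the annotation text ends at 255 characters. RMA files hold no detection call, and precision is limited by the number of arrays.

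Genes above the 30th percentile of an array on at least 2 arrays entered 1 limma model of 3 groups (version 3.58.1 under R 4.3.3, two-sided moderated tests by lmFit and eBayes), which had 3 residual and 3.18 prior degrees of freedom. Benjamini-Hochberg adjustment ran over 15374 genes, with calls made at 0.05. The model was tested on simulated data. Between 2 and 2 arrays the smallest two-sided exact permutation p is 0.333, so no permutation test is given.

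All genes of the group are named, plus, from each further list, the 2 called genes with the largest difference in each direction, and Myc and Max. The members and lists were chosen with earlier results of these data known. Alternatives changed the filter, the probe set rule, the scaling, the variance model, the arrays in the fit and the replicate block. Sequences are from RefSeq.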

Additional observations from a re-analysis of the deposited data

How the results depend on the processing

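Every value rests on 2 arrays of 1 cell line per group, so that leaving out 1 array moves the counts of calls more than the sizes. The 38 differences between EBF1 and Pax5 cells kept their sign under every alternative run. Against Control, differences that were not called changed sign under some alternative for Ncl, Npm1, Wdr12 and Odc1 in EBF1 cells and for Pes1, Rrp12, Ddx18, Polr1c and Grwd1 in Pax5 cells.

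For EBF1 against Control, the count of the genes called higher was 4, and it was 11 with a filter at the 50th percentile, 16 with a trended and robust variance, 9 with only the 4 arrays compared, 0 with the authors' step-up p, and 0 to 9 with 1 array left out. Over all genes tested, 860 were called, and 1324, 1788, 1430 and 5 under the same settings, 563 with the replicate block, and 103 to 1430 with 1 array left out. The median of 0.22 ranged from 0.22 to 0.25 with 1 array left out.

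For Pax5 against Control, the count called lower was 2. It was 5 with a filter at the 50th percentile, 15 with a trended and robust variance, 0 with no filter, with array medians subtracted, with only the 4 arrays compared, with the replicate block and with the authors' step-up p, and 0 to 9 with 1 array left out. The 9 were called without Pax5 array 1. Over all genes, 648 were called, and 1005 with the 50th percentile, 1648 with the trended variance (614 higher and 1034 lower, against 331 and 317), 241 with 4 arrays, 411 with the block, 17 with the authors' step-up p, and 60 to 2415 with 1 array left out. The median of -0.24 was -0.19 after quantile normalization was repeated, -0.21 with array medians subtracted, and -0.26 to -0.21 with 1 array left out.

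For EBF1 against Pax5, 28 were called higher, and 15 with only the 4 arrays compared, 3 with the authors' step-up p, and 4 to 27 with 1 array left out. Over all genes, 2142 were called, and 3386 with the trended variance, 1103 with 4 arrays, 379 with the authors' step-up p, and 409 to 3905 with 1 array left out. The median of 0.45 was 0.38 after repeated quantile normalization and 0.42 to 0.48 with 1 array left out.

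Replicate numbers did not pair the arrays: the deviations of same-numbered arrays correlated at 0.01 for Control with EBF1, 0.01 for Control with Pax5 and -0.01 for EBF1 with Pax5, across genes. With the replicate block, 3 of the genes were called higher in EBF1 than in Control cells and 21 higher in EBF1 than in Pax5 cells. With a fit that leaves 1 array in a group, that array is assumed to vary like the others. Causes of these changes were not tested, beyond the fewer arrays or genes that a setting itself brings.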
